A study of Homo sapiens with 6 samples.

Results

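The profilins and cofilins are small proteins that control how actin filaments grow and fall apart. The members were taken by gene symbol from the deposited array table: the profilins PFN1, PFN2, PFN3 and PFN4, the cofilins CFL1 and CFL2, and DSTN, which encodes destrin. All 7 genes had at least 1 row, and together they had 11 of the 34558 array rows, or 7 of 19148 genes once the rows of a gene were averaged. The set was picked because both rows of PFN2 read lower in the samples labelled MTA2 siRNA, so differences between the siRNA groups are given for these 7 genes as a description, without a test.

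The study profiled RNA from 6 samples of KYSE30 cells, a long-established line from a human squamous carcinoma of the oesophagus. Samples 1 to 3 received a negative control siRNA and samples 4 to 6 an siRNA against MTA2, which encodes a subunit of the NuRD chromatin complex. Both groups were transfected with Lipofectamine 2000 at a dose the labels give as 20 nmol/ml and were exposed for 48 h. The dye named in the labels was Cy3 for control samples 1 and 3 and for sample 5, and Cy5 for control sample 2 and for samples 4 and 6. The labels do not say whether the 3 samples of a group were separate cultures, so the spread between them may be technical. The antisense strands, which guide the silencing complex, are shown to identify what separates the groups. Both are copied from the labels, 5′ to 3′, with the seed (bases 2 to 8) in capitals.
Antisense strand, siRNA against MTA2: aUAGACGUaaucucccacctt
Antisense strand, control siRNA: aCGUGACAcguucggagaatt

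Typical profilins bind actin monomers, help them exchange ADP for ATP and hand them to the growing ends of filaments. There formins and Ena/VASP proteins recruit profilin through their own proline-rich stretches. This outline need not hold for every profilin in the set. Cofilin and destrin bind ADP-actin within filaments, sever them and speed their disassembly. Phosphorylation by LIM kinases and TES kinases switches cofilin off, and Slingshot phosphatases and chronophin switch it on again. In carcinoma cells this cycle of assembly and disassembly drives the protrusions used in migration.

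The deposited values are log2 intensities, with column medians from 10.44 to 10.45 and values from -0.83 to 15.996. Levels of different rows depend on their own probes and are not compared with each other. MTA2 itself had 1 row, whose mean was 13.02 ± 0.10 over the 3 controls and 13.27 ± 0.22 over samples 4 to 6 (SD). The targeted transcript was therefore not lower in the labelled samples, and every direction below refers to the samples as labelled. Of 10 squamous epithelial markers, 6 lay above the median gene (10.47) in all 6 samples, as did 5 of 6 neuronal, 3 of 3 endothelial, 3 of 5 leukocyte, 3 of 5 fibroblast, 1 of 7 muscle and 0 of 6 germ cell markers. Since levels of different rows are not comparable, these counts do not test the labelled cell type. The summed log2 level of the squamous markers ran from 116.1 to 117.6 in the controls and from 115.2 to 117.9 in the other group. No array-wide difference between the groups passed the test: limma called 0 of 19148 genes (0% of genes) at an adjusted p of 0.05, while 719 (3.75%) had an unadjusted p under 0.05. The 7 profilin and cofilin genes likewise gave 0 calls, from which nothing is read, since this contrast chose them.

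PFN2, the profilin best known from neurons, read lower in the samples labelled MTA2 siRNA in both of its rows. The row for transcript NM_053024 read 11.05, 11.41 and 11.18 in control samples 1 to 3 and 10.57, 10.22 and 10.44 in samples 4 to 6. The row for NM_002628 read 11.08, 10.96 and 11.21 in the controls and 10.55, 10.07 and 9.78 in samples 4 to 6. In each row the lowest control lay above the highest sample of the other group, and sample 4 was the nearest to the controls. Averaged over the rows, PFN2 had a mean of 11.15 ± 0.073 over the controls and of 10.27 ± 0.25 over samples 4 to 6 (SD, n = 3 each). This is a difference of -0.87 on the log2 scale, or 54.6% of the control level. It was -0.80 for NM_053024 and -0.95 for NM_002628. In a bulk lysate, fewer cells with the transcript and less transcript per cell cannot be told apart.

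The lower PFN2 reading kept its sign within each dye and with samples left out. Since this reading in the same 6 samples chose the set, these values describe it and are no independent support. Among the Cy3 arrays the difference was -0.98, between sample 5 and control samples 1 and 3. Among the Cy5 arrays it was -0.85, between samples 4 and 6 and control sample 2. Neither comparison has replicates in both arms. With each sample left out in turn it ran from -1.02, without sample 4, to -0.79, without sample 6.

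The rows of PFN2 differed from one another in sample 6 and in control sample 2 rather than in direction. The NM_053024 row exceeded the NM_002628 row by 0.44 in control sample 2 and by 0.66 in sample 6. In the other samples this gap lay between -0.03 and 0.14. The range of the group difference over the 2 rows was 0.15.

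**Figure D1:**
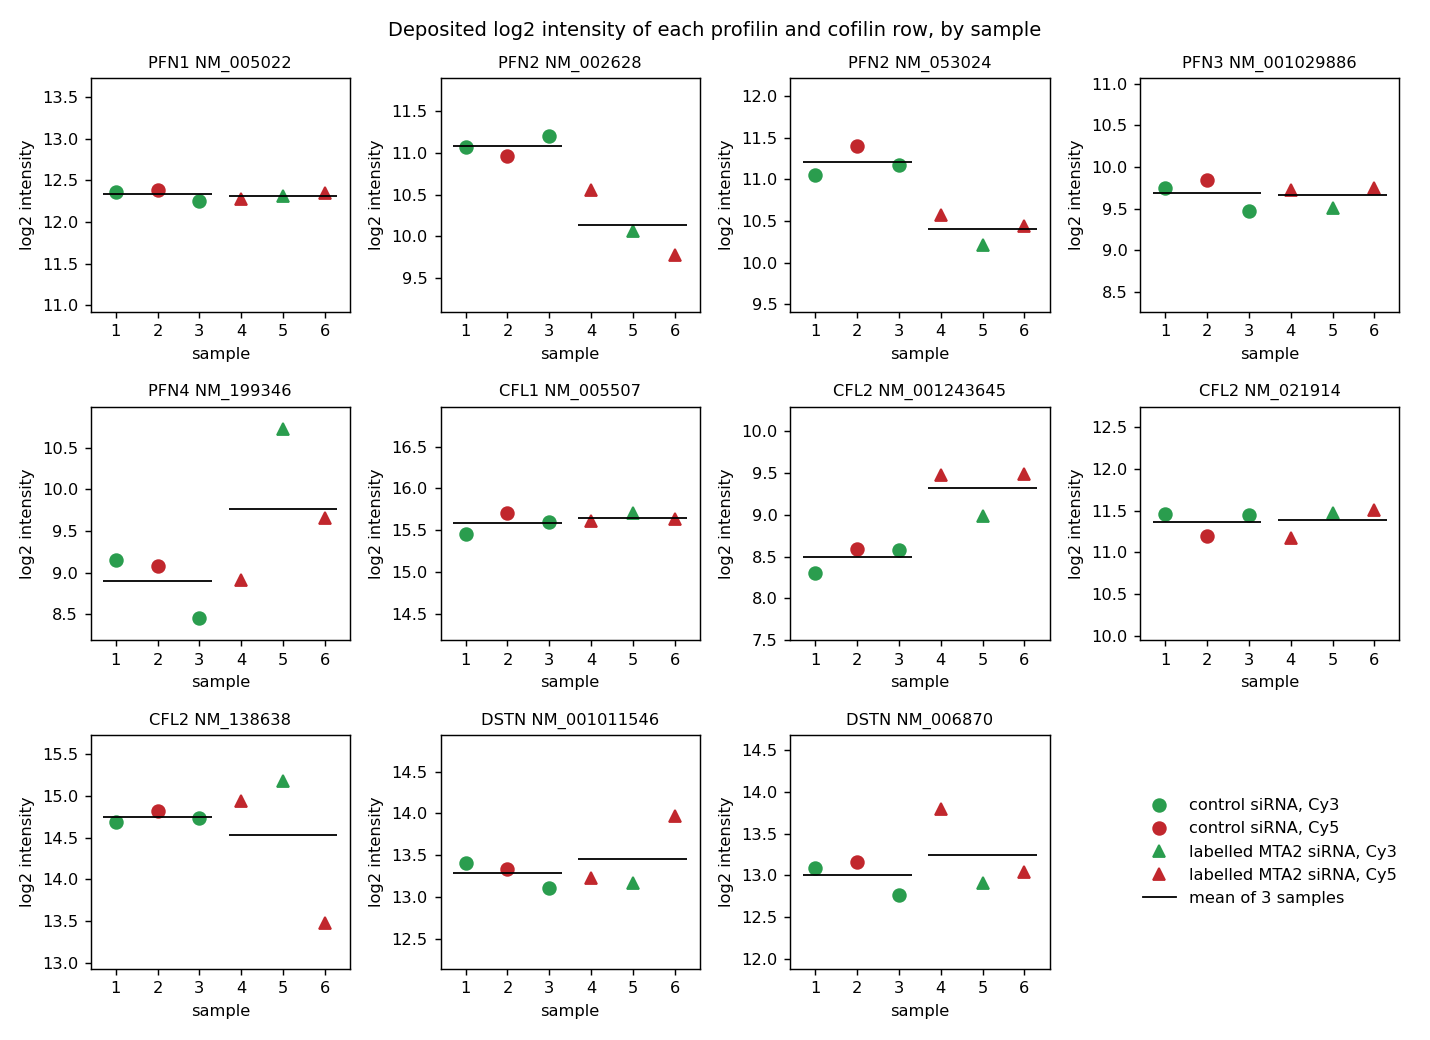
Log2 intensity (y axis, a span of equal size in every panel) by sample number (x axis) for each of the 11 rows. Circles are control siRNA and triangles the samples labelled MTA2 siRNA, green is Cy3 and red is Cy5, and lines are means of 3 samples. Both PFN2 rows show the triangles below all circles, from 9.78 to 10.57 against 10.96 to 11.41, whereas PFN1 stays between 12.26 and 12.39 in all 6 samples.

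The other widely expressed profilin, PFN1, showed almost no variation. Its single row read 12.36, 12.39 and 12.26 in the controls and 12.27, 12.31 and 12.35 in samples 4 to 6. The groups overlapped, and their means were 12.33 ± 0.069 and 12.31 ± 0.038, a difference of -0.024 (98.4% of the control level). Its pooled SD within groups was 0.056, and 0.668% of all genes had a smaller one. The sign of so small a difference had no hold, since it turned to 0.0052 within the Cy3 samples.

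PFN3 and PFN4, profilins reported mainly from testis, had 1 row each. PFN3 read 9.75, 9.85 and 9.48 in the controls and 9.73, 9.51 and 9.75 in samples 4 to 6, with overlapping groups and a difference of -0.031. That difference turned to 0.047 without control sample 2. PFN4 read 9.15, 9.08 and 8.46 in the controls and 8.91, 10.72 and 9.66 in samples 4 to 6. Sample 4 fell within the range of the controls, while sample 5 stood highest. The PFN4 means were 8.90 ± 0.38 and 9.76 ± 0.91, a difference of 0.87, and without sample 5 the difference was 0.39. PFN4 was thus as far above the controls as PFN2 was below, but its SD in the samples labelled MTA2 siRNA was wider than the difference.

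CFL1, the main cofilin of non-muscle cells, read close to the top of the scale. Its row read 15.46, 15.70 and 15.60 in the controls and 15.61, 15.70 and 15.63 in samples 4 to 6. The groups overlapped and the means differed by 0.062, with signs that parted by dye (0.17 within Cy3 and -0.082 within Cy5). The highest value on any array was 15.996. Whether the top of the scale limited what an increase in CFL1 could show was not tested.

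CFL2, the cofilin that predominates in muscle, had 3 rows that did not show the same difference. The row for NM_001243645 read 8.30, 8.59 and 8.58 in the controls and 9.48, 8.99 and 9.49 in samples 4 to 6, all above the controls. Its means were 8.49 ± 0.17 and 9.32 ± 0.29, a difference of 0.83 (177% of the control level). The row for NM_021914 read 11.46, 11.19 and 11.44 in the controls and 11.18, 11.47 and 11.51 in the other group. Its groups overlapped, with a difference of 0.019. The row for NM_138638 read 14.69, 14.83 and 14.73 in the controls and 14.94, 15.18 and 13.48 in samples 4 to 6. Samples 4 and 5 lay above the controls and sample 6 below them. Its difference was -0.22 with all samples and 0.31 without sample 6. The mean over the 3 rows, 0.21, therefore describes none of them, and taking the brightest row alone turned it to -0.22. The range over the CFL2 rows was 1.05, wider than in 91.5% of genes with several rows.

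Among 11 rows, 2 lay wholly below the controls (both of PFN2, where 3.76% of all rows did) and 1 lay wholly above them (CFL2 NM_001243645, where 5.07% did). Among the 7 genes, 1 lay wholly below (4.00% of all genes did) and 0 wholly above (5.43% of all genes). The siRNA contrast chose the members, so these counts are printed beside the background only.

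RefSeq (GRCh38.p14) lists more than 1 start for CFL2, and the windows from 250 bases before to 50 after each start are printed because its rows disagree. Which row reports which start was not determined. Capitals mark the GC box GGGCGG or its reverse complement CCGCCC, a short element bound by Sp-family factors, searched on both strands with overlaps allowed. The first window, chr14:34714544-34714843 on the minus strand, is 79.3% G and C and holds 3 matches. The other, chr14:34713746-34714045 on the same strand, is 43.3% G and C and holds 1. A match was present in 45% of the 35116 windows of this length in the table, whose median share of G and C was 58.7%.
CFL2, upstream start: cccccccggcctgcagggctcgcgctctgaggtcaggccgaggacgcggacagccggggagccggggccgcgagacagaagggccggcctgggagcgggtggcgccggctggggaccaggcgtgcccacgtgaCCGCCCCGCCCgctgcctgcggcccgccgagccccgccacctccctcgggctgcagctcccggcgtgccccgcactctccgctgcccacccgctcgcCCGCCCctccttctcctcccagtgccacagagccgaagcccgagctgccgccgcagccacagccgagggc
CFL2, downstream start: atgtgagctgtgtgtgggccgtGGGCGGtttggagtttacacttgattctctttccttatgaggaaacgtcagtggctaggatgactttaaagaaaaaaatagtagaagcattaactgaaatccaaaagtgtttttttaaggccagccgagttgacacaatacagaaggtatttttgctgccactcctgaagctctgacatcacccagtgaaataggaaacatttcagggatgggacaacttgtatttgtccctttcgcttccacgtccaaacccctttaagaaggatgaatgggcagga
Windows were also found for PFN1, PFN4, CFL1 and DSTN, each with GC box matches (2, 5, 2 and 2), and none of the 6 windows held TATAAA on either strand, which 11.5% of all windows did. PFN2 and PFN3 had no entry.

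DSTN encodes destrin, the third member of the cofilin family. Its 2 rows each had 1 high sample in the group labelled MTA2 siRNA, but not the same one. The row for NM_001011546 read 13.41, 13.33 and 13.11 in the controls and 13.22, 13.17 and 13.97 in samples 4 to 6, with sample 6 high. The row for NM_006870 read 13.09, 13.16 and 12.76 in the controls and 13.80, 12.91 and 13.04 in samples 4 to 6, with sample 4 high. Both rows overlapped between the groups. The differences were 0.17 and 0.24, and they turned to -0.087 without sample 6 and to -0.030 without sample 4. Averaging the rows gave 13.14 ± 0.18 and 13.35 ± 0.27, a difference of 0.21, which was -0.053 within the Cy3 samples.

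**Figure D2:**
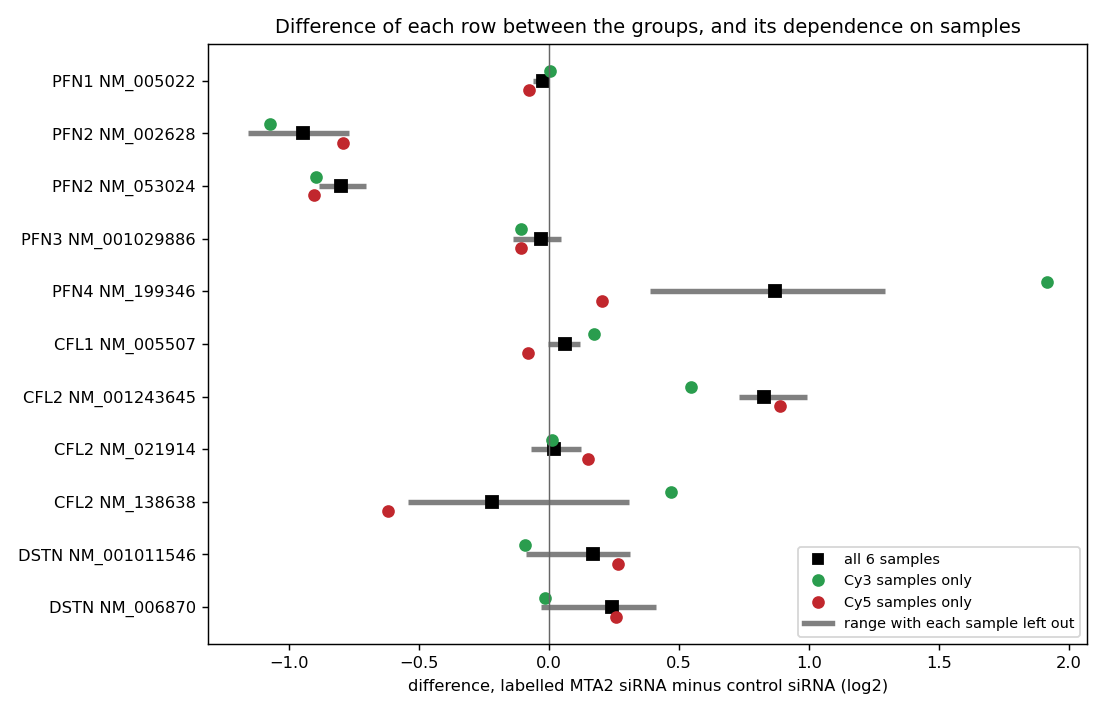
Difference in log2 intensity, samples labelled MTA2 siRNA minus control siRNA (x axis), for each row (y axis). Black squares use all 6 samples, green and red circles the Cy3 and Cy5 samples alone, and grey bars span the differences with each sample left out. Both PFN2 rows lie between -1.16 and -0.70 throughout, CFL2 NM_001243645 lies between 0.55 and 0.99, and the bars of all other rows except PFN4 cross 0.

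The dye named in the labels is a grouping of the same samples that the choice of these genes did not use. The labels conflict here: their protocol names a one-colour kit, yet the dye field differs between samples. A dye difference below therefore means a difference between samples by that field, whose meaning on the arrays is not known. A limma fit with siRNA and dye as terms called 66 of 19148 genes (0.345%) for dye at an adjusted p of 0.05, and 3433 (17.9%) had an unadjusted p under 0.05. Of the 7 profilin and cofilin genes, 0 passed and 0 had an unadjusted p under 0.05. PFN2 differed by 0.12, Cy5 minus Cy3, with a 95% interval of -0.32 to 0.56 (limma adjusted p = 0.738). DSTN had the lowest adjusted p of the 7, with a difference of 0.31 and an interval of -0.097 to 0.72 (limma adjusted p = 0.379). PFN4 had the widest interval, from -1.72 to 0.57, around a difference of -0.58. PFN1 differed by 0.037 (interval -0.29 to 0.37) and CFL1 by 0.046 (-0.31 to 0.40). PFN3 differed by 0.23 (-0.13 to 0.59) and CFL2 by -0.099 (-0.51 to 0.31). These intervals leave room for dye differences of over 0.3 in each gene. The PFN2 value was -0.18 when the siRNA term was left out, since the Cy5 arrays then hold 2 of the 3 low samples. By row, with the siRNA term, PFN2 differed by dye by 0.29 for NM_053024 and by -0.042 for NM_002628. The CFL2 rows lay on both sides of 0, at 0.32 (NM_001243645), -0.19 (NM_021914) and -0.43 (NM_138638). The DSTN rows differed by 0.25 and 0.37. The averaged values for PFN2 and CFL2 therefore hide rows of opposite sign.

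**Figure D3:**
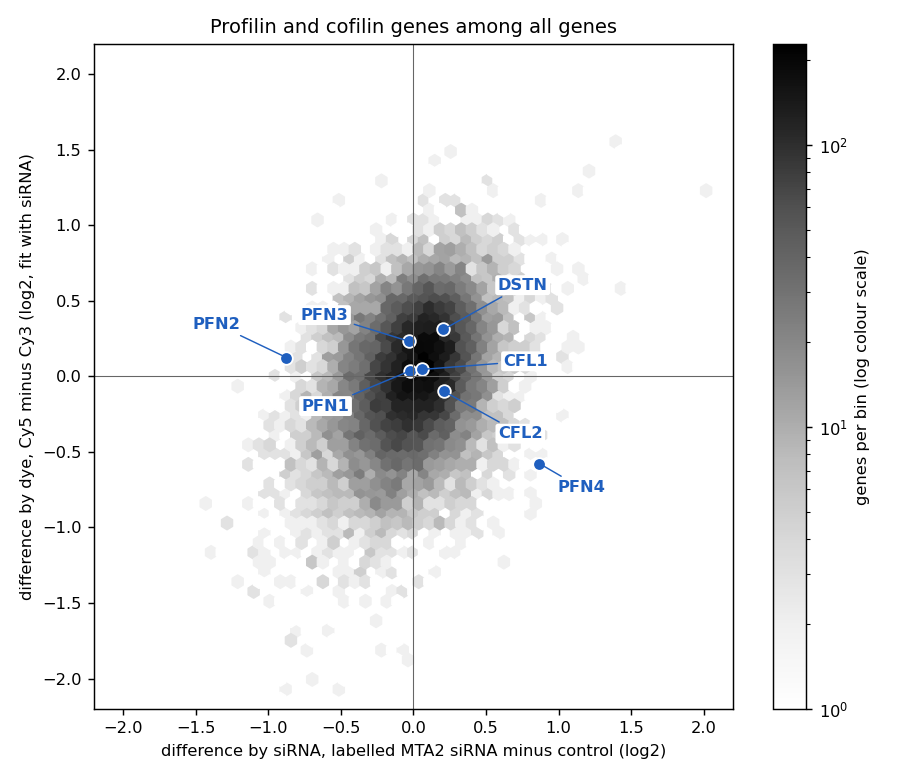
Difference by siRNA (x axis) and by dye (y axis), both in log2 units, for the 7 profilin and cofilin genes (blue) over all genes (grey bins, darker for more genes on a log colour scale). Axes stop at 2.2 in either direction, which leaves 113 genes outside the plot. PFN2 lies at -0.87 and 0.12 and PFN4 at 0.87 and -0.58, and the other 5 lie nearer to 0 by siRNA. By siRNA difference, 1.25% of all genes lay lower than PFN2 and 98.9% lower than PFN4.

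The genes that act with profilin and cofilin were followed in a list of 72, all of them measured. In the siRNA contrast 0 of the 72 passed limma's adjusted p of 0.05 in either direction, and 7 had an unadjusted p under 0.05, beside 3.75% of all genes. By mean difference 33 read higher and 39 lower, where 10436 and 8712 of all genes did. The median difference was -0.025, against 0.029 over all genes. The groups did not overlap in 4 genes that read above the controls and 3 that read below, where 5.43% and 4.00% of all genes did. The list members spanned -0.73 to 0.63. For 41 of the 72 the sign turned under at least 1 of 12 alternative fits. Of the 24 list genes named by role, 8 kept their sign in all 12: ACTG1, TESK1, SSH2, SSH3, TWF1, TWF2, ACTR3 and CAPZB. For ACTR3 this did not hold across its rows, which pointed in opposite directions. The 7 with an unadjusted p under 0.05 (ACTC1, PAK4, COTL1, FMNL1, FHOD1, ARPC3 and TMOD3) are given below. ROCK1, TESK2, DIAPH3 and FMN2 are given too, all of these named after their values were seen.

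Among the actins, ACTB, a cytoplasmic actin often used as a loading reference, differed by -0.085, from 12.67 ± 0.66 to 12.59 ± 0.56. Its level parted the samples otherwise, with 13.43 in control sample 2 and 13.22 in sample 5 but 12.16 to 12.41 in the other 4. ACTG1, the other cytoplasmic actin, differed by 0.41, from 12.82 ± 0.12 to 13.23 ± 0.34, and stayed between 0.25 and 0.58 in the alternatives. ACTC1, cardiac actin, differed by 0.63. The median over the 6 actins was 0.15.

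Enzymes that set cofilin phosphorylation gave 0 calls and read on both sides of 0. The LIM kinases LIMK1 and LIMK2, which inactivate cofilin, differed by -0.017 and -0.021. TESK1, another cofilin kinase, differed by 0.37, from 11.08 ± 0.33 to 11.46 ± 0.44, with overlapping groups, and its relative TESK2 by -0.48. Among the upstream kinases, ROCK1 differed by 0.62 and PAK4 by -0.49, and all 3 samples labelled MTA2 siRNA lay below the controls for PAK4. For ROCK1 the groups overlapped, and the difference was 0.37 with dye as a second term. The Slingshot phosphatases SSH1, SSH2 and SSH3, which reactivate cofilin, differed by -0.11, 0.11 and 0.23, and PDXP (chronophin) by -0.12. SSH1 differed by 0.30 in its brightest row. The medians were -0.021 over the 9 kinases and their activators and -0.00056 over the 4 phosphatases. Mean differences lay below 0 in 6 of the 9 and in 2 of the 4, beside 8712 of all 19148 genes.

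Partners in disassembly and monomer supply also read on both sides of 0. CAP1 and CAP2, cyclase-associated proteins that recycle cofilin-bound monomers, differed by -0.031 and 0.18, and WDR1, which helps cofilin disassemble filaments, by 0.13. TWF1, a twinfilin with the cofilin fold that caps filaments and binds monomers, read 9.70, 9.71 and 9.69 in the controls and 9.95, 9.90 and 10.05 in samples 4 to 6. All 3 lay above the controls, and the TWF1 difference of 0.27 stayed between 0.21 and 0.30 in the alternatives. It did not pass the test (limma adjusted p = 0.943). Its relative TWF2 differed by -0.16. COTL1, a coactosin with the same fold, differed by -0.59, with all 3 samples below the controls. The thymosins TMSB4X and TMSB10, which hold monomers in reserve and compete with profilin for them, differed by 0.18 and 0.11.

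Profilin-binding elongation factors had 10 of 15 mean differences below 0, where 8712 of all 19148 genes did. Their median was -0.074, and 0 of 15 passed the test. In 0 did all 3 samples lie below the controls, where 4.00% of all genes did, so nothing is read from that count. ENAH, the Ena/VASP protein also called Mena, differed by -0.52, from 7.76 ± 0.10 to 7.24 ± 0.50, and sample 5 at 7.81 lay within the controls. The ENAH difference was 0.0012 within the Cy3 samples and -0.81 without sample 5. In the brighter of its 2 rows alone it was -0.039, so the rows did not show the same difference. EVL and VASP differed by -0.19 and -0.074, and the formin DIAPH1 by -0.038, but by 0.14 in its brightest row. The formins FHOD1 and FMNL1 differed by 0.62 and -0.73, and for FHOD1 all 3 samples lay above the controls. For FMNL1 the groups overlapped. With dye as a second term the differences were 0.67 for FHOD1 and -0.50 for FMNL1. The same term turned DIAPH3 from -0.014 to 0.047 and FMN2 from -0.12 to 0.061, so fewer than 10 of the 15 then lay below 0. The Arp2/3 complex, which branches filaments, and its activators had 11 of 15 mean differences below 0, beside the same 8712 of 19148 genes. The median for the complex and its activators was -0.19, again with 0 past the test. ACTR2 and ACTR3, the actin-related core subunits of the complex, differed by -0.47 and -0.26, with overlapping groups, and the subunit ARPC3 by -0.43. In the brightest row alone ACTR2 differed by -0.15 and ACTR3 by -1.18. Since the 2 rows of ACTR3 averaged -0.26, its other row read higher in samples 4 to 6, so the rows pointed in opposite directions. Among 10 capping and severing proteins 7 mean differences lay above 0, beside 10436 of all 19148 genes, and the median was 0.10. GSN (gelsolin) differed by 0.030, but by 0.55 in its brightest row, and the tropomodulin TMOD3 by 0.44.

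CAPZB, the beta subunit of the main capping protein, read higher in every Cy5 sample than in any Cy3 sample. It read 8.56, 9.23 and 9.02 in the 3 Cy3 samples and 10.25, 10.50 and 10.10 in the 3 Cy5 samples. The siRNA difference of 0.53 came to 0.085 with dye as a block. The dye difference was 1.32 (SE 0.24), which did not pass (limma adjusted p = 0.119). Over the list, 0 of 72 genes passed for dye and 10 had an unadjusted p under 0.05, beside 17.9% of all genes.

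**Figure D4:**
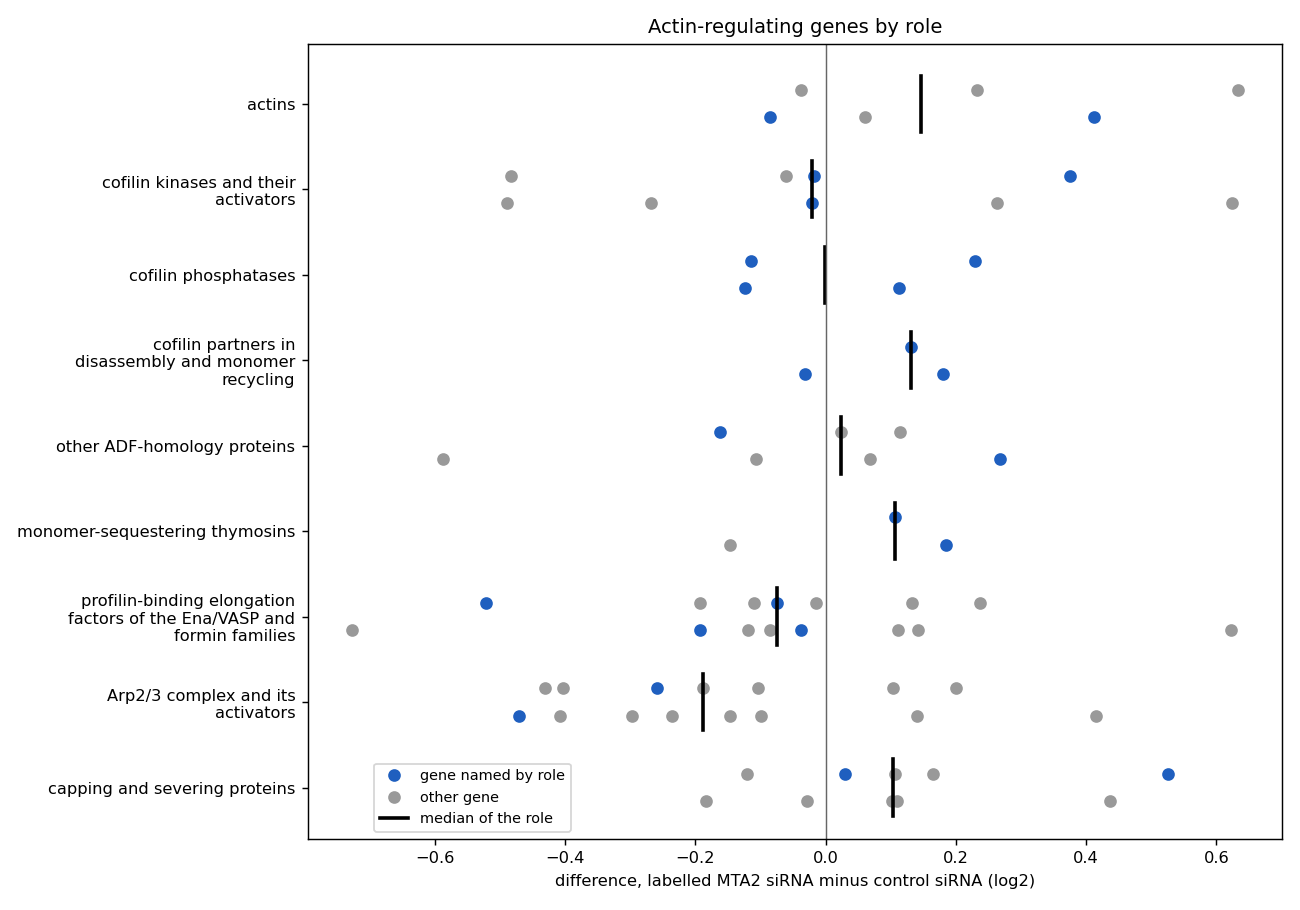
Difference in log2 intensity, samples labelled MTA2 siRNA minus control siRNA (x axis), of 72 actin-regulating genes grouped by role (y axis, points offset vertically for legibility). Blue points are the 24 genes named by role, grey points the others, and black bars medians. The 72 points lie on both sides of 0, from -0.73 to 0.63.

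The genes whose 6 values ran most like those of PFN2 were sought among the 9569 other genes above the median level. The highest Pearson r was 0.997 for CD93, then 0.984 for DNTTIP2, 0.971 for PNO1, 0.961 for ASB16 and 0.959 for CLDN22, each with 1 row. In all, 39 of the 9569 genes had an r over 0.9. With 6 samples that fall into the 2 siRNA groups, r measures mainly whether a gene is lower in samples 4 to 6. In all 5 the samples labelled MTA2 siRNA lay below the controls. The sizes differed: CD93 by -0.20, CLDN22 by -0.23, ASB16 by -0.30, DNTTIP2 by -0.43 and PNO1 by -1.15. PNO1 read 11.40, 11.61 and 11.21 in the controls and 10.81, 9.96 and 9.98 in samples 4 to 6, with sample 4 nearest to the controls as for PFN2.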

How the data were processed

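Per the labels' protocols, double-stranded cDNA from 6 KYSE30 samples was labelled by a one-colour kit and hybridised to arrays. The authors deposited log2 intensities for 34558 rows; how background was corrected, how arrays were normalised and the build were not given in the sources used here. Both deposited tables hold the same values (207348 of 207348 equal within 1e-06), and no detection call was used. Rows were named through RefSeq (GRCh38.p14; 33809 by accession), and rows of a gene were averaged on the log2 scale. limma 3.58.1 (R 4.3.3; lmFit and eBayes, two-sided) compared the groups with Benjamini-Hochberg adjustment over 19148 genes at 0.05. The siRNA fit had no covariate; the dye fit had siRNA as a second term. The fit was tested on simulated data. The number of arrays limits the precision. The 7 genes, the list of 72, the cell type markers and the alternatives were chosen with earlier results of these data known. The text names every member, MTA2, 24 list genes picked by role, and the 5 genes most like PFN2; others are named because a count was small or once their values had been seen. Plots were drawn with matplotlib 3.10.9.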

Additional observations from a re-analysis of the deposited data

How the results depend on the processing

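No paired analysis was run, because the sample numbers run from 1 to 6 and no number occurs in both groups. Whether control and MTA2 siRNA samples were paired in some other way was not determined. The PFN2 difference of -0.87 stayed between -1.02 and -0.79 in all 12 alternatives. These included quantile normalisation again, median centring, the brightest row, dye as a block and each dye alone. The lower PFN2 rows chose the set, so this range is only a description. PFN4 also kept its sign in 12 of 12 alternatives, but ran from 0.20 within Cy5 to 1.92 within Cy3. The number of genes called by siRNA, 0, became 0 to 3 with each sample left out (EHBP1L1, EIF4E and POTEB2 without control sample 2, LOC391322 without sample 6) and 4 within Cy3 (EHBP1L1, FABP9, LOC391322 and PRSS56), named because the counts are small. The fits within 1 dye have a lone sample in 1 arm and take its spread from the other arm. The number called by dye, 66, was 105 after quantile normalisation again, 194 with no siRNA term, 138 among genes above the median, 282 with a trended robust variance, 120 over array rows and 1 to 35 with each sample left out (1, TTLL2, without control sample 1, where 3033 genes had an unadjusted p under 0.05). The cause was not tested. The count of actin-list genes called by dye went from 0 to 1, CAPZB, with no siRNA term. Dye differences of members changed sign for PFN2 (-0.18 with no siRNA term) and with samples left out for PFN1 (-0.0044 to 0.078), CFL1 (-0.082 to 0.17), CFL2 (-0.20 to 0.0027) and PFN4 (-1.44 to 0.28). In 63 alternative fits of a member's dye difference, 0 passed the threshold (lowest limma adjusted p = 0.269). Dim rows have no background value, so what limits them is unknown here.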
